A study of Mus musculus with 4 samples.

Results

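The subject is 10 genes of the immunoglobulin superfamily that inhibit or costimulate T cells, followed in Th17 cultures. They were chosen by symbol from the deposited table of 34745 genes: Pdcd1, Lag3, Havcr2, Tigit, Ctla4, Cd160, Btla, Cd200, Cd96 and Cd226. All 10 members were found, each in 1 row, and coordinates are the deposited ones (GRCm38). RNA was sequenced from naive CD4+ T cells of mouse spleen (C57BL/6) that had been kept in Th17-polarizing culture for 3 days. One group of 2 libraries was of wild-type genotype (WT 13 and WT 15), and the other group of 2 was of the genotype labelled Setd2-CD4 cre (22 and 24). Setd2 encodes the enzyme that trimethylates lysine 36 of histone H3. Cre driven by Cd4 sequences acts in developing alpha-beta T cells, so CD8 T cells also carry the recombined allele and B cells are not a target. The sources used here do not give the exons removed, the age of the mice, or whether WT mice carried Cre or floxed alleles. The labels also do not say whether the libraries came from separate mice or cultures, so the tests below compare the groups against the spread of these libraries alone, and that spread may be technical.

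These receptors set the strength of T cell activation from the cell surface. Ctla4 and Pdcd1 belong to the CD28 family: CTLA-4 takes CD80 and CD86 away from the activating receptor CD28, and PD-1 recruits phosphatases when it binds PD-L1 or PD-L2. BTLA and CD160 bind HVEM. LAG-3 binds MHC class II and other ligands, and TIM-3 (Havcr2) is a receptor of exhausted and terminally differentiated effector T cells. TIGIT, CD96 and the activating receptor CD226 compete for the poliovirus receptor CD155 (Pvr) and related nectins. CD200 is a membrane ligand that restrains cells bearing its receptor, CD200R1.

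Total counts were 11007343 to 12518415 a library. Levels within a gene are given as CPM, counts scaled to a library of 1000000 after TMM scaling, a correction for composition. Setd2 measured 183 and 176 CPM in the WT libraries and 144 and 153 CPM in Setd2-CD4 cre 22 and 24, which missed the threshold (log2 fold change -0.28, SE 0.10, edgeR adjusted p = 0.0748). It passed in 6 of 13 alternatives. The gene sum does not test for lost exons. Markers of the labelled cells were present in all 4 libraries, with Cd4 at 939 to 1138 CPM and the Th17 cytokine gene Il17a at 162 to 586 CPM. Cd3g, a chain of the T cell receptor complex (log2 fold change -0.94, edgeR adjusted p = 0.00173), Trac (-0.57, adjusted p = 0.00982) and Cd3e (-0.48, adjusted p = 0.0224) were lower in Setd2-CD4 cre. Of 12 T cell and Th17 markers 4 rose and 5 fell, and 3 and 1 did so without WT 13 or without WT 15. Trac and Cd3e lost their calls without WT 13 (0.0909 and 0.234) and without WT 15 (0.0636 and 0.0561). In bulk RNA, fewer cells of a type and less RNA per cell cannot be told apart.

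In all, 3 receptor genes rose in Setd2-CD4 cre cultures and 1 fell. Tigit was 3.05-fold higher, Havcr2 2.07-fold higher and Ctla4 1.48-fold higher, while Btla was 1.51-fold lower, by edgeR's quasi-likelihood test with Benjamini-Hochberg adjustment over all 12927 genes tested and a threshold of 0.05. The filter on low counts was passed by 9 of the 10 genes and not by Cd160. Calls were therefore made for 4 of 9, or 44.4%, where 30.7% of all tested genes were called (16.2% higher and 14.5% lower). The median log2 fold change of the 9 was 0.39, against -0.01 over all tested genes, whose quartiles were -0.42 and 0.36. Libraries of the 2 genotypes did not overlap for 8 of the 9, and for 70.7% of all tested genes. Without WT 13, 1 of the receptor genes was called higher and 0 lower. Without WT 15 the counts were 1 and 1, and without Setd2-CD4 cre 24 they were 5 and 1. In these fits the genotype left with 1 library is assumed to vary like the other.

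**Figure D1:**
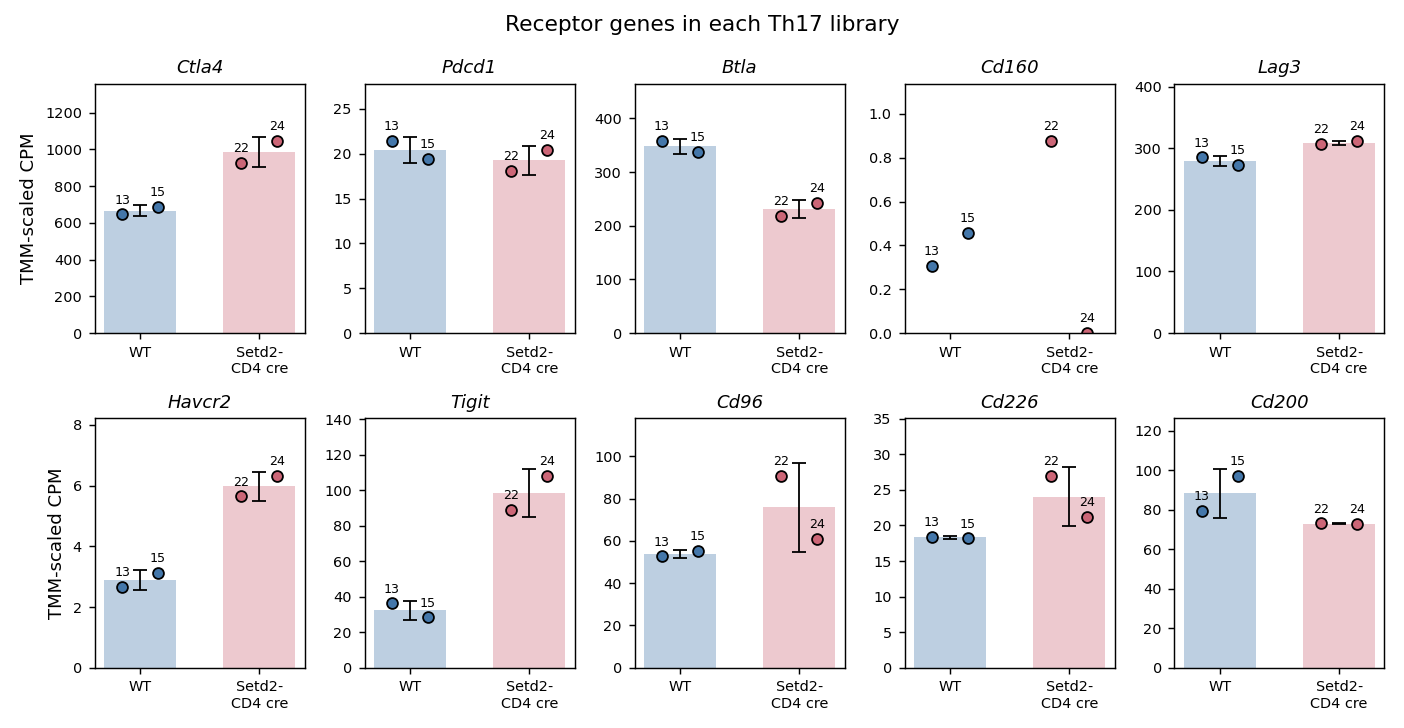
TMM-scaled CPM of the 10 receptor genes in each library, with bars at the group mean and whiskers at 1 SD (n = 2 each; no bar for Cd160, which rested on 0 to 9 counts). Points are labelled with the replicate number, and each panel has its own axis from 0. For Tigit, Havcr2 and Ctla4 both Setd2-CD4 cre points lie above both WT points, and for Btla both lie below.

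Before the values, the 250 bases upstream of the start of the 4 called genes are shown, because 3 of these genes moved one way and 1 the other. The sequences are RefSeq's (GRCm38.p6), 5′ to 3′ on the strand of the gene. Capitals mark any match, on either strand, to 8 short motifs: AP-1 (TGANTCA), the NFAT core (GGAAA), the ROR motif (AGGTCA), STAT (TTCNNNGAA), IRF (GAAA and GAAA with 2 bases between), NF-kappaB (GGGA and CC with 4 bases between), the MAF motif (TGCTGA) and the TATA box (TATAAA).
Tigit (chr16:43664185-43664434, minus strand): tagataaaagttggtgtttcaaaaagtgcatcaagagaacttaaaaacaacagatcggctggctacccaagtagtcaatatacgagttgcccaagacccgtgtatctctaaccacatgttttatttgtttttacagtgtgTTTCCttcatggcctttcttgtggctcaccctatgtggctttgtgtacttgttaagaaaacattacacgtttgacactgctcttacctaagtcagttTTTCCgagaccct
Havcr2 (chr11:46454681-46454930, plus strand): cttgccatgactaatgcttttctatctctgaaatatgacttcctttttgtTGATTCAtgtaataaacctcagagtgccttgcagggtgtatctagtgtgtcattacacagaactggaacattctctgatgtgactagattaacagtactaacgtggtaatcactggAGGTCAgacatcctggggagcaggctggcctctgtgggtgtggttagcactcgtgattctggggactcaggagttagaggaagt
Ctla4 (chr1:60908775-60909024, plus strand): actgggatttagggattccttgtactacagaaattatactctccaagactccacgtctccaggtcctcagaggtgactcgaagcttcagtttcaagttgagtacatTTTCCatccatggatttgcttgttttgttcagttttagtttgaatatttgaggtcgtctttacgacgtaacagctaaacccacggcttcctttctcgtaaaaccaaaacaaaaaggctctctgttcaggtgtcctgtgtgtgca
Btla (chr16:45224087-45224336, plus strand): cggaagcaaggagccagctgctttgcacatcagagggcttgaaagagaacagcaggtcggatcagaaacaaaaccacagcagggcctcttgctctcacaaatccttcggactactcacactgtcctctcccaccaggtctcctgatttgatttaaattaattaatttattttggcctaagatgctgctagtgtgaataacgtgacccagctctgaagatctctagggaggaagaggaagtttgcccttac

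The NFAT core was present upstream of Tigit and Ctla4, and in 55.6% of the 32851 promoter windows in the table. Upstream of Havcr2 lay 1 AP-1 match, a motif in 6.75% of windows, and 1 ROR motif, in 14.0%. Members not called also had matches, the NFAT core upstream of Pdcd1, Cd96 and Cd160 and the ROR motif upstream of Pdcd1. None of the 8 was found in the Btla window. The other 5 motifs had no match in these 4 windows and occurred in 7.02% (STAT), 2.98% (IRF), 17.6% (NF-kappaB), 16.1% (MAF) and 12.4% (TATA) of all windows. The 4 windows had a GC content of 40.0% (Tigit), 44.8% (Havcr2), 42.4% (Ctla4) and 47.2% (Btla), where the median over all windows was 52.4%. They held 5, 2, 7 and 4 CG pairs, against a median of 6. RefSeq's start of Ctla4 lies inside the deposited span of the gene, which begins further upstream, and the last bases of the Btla window reach into the first exon of a GENCODE M21 transcript. A match is a description of letters, and promoter activity was not measured.

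Between genes, levels were compared per length, as deposited FPKM. In WT the order was Ctla4 (mean 243 FPKM), Lag3 (136), Btla (60.2), Tigit (35.3), Cd96 (26.0), Cd200 (14.0), Pdcd1 (11.1), Cd226 (7.16), Havcr2 (0.614) and Cd160 (0.129), and no 2 neighbours in that order overlapped between libraries. In Setd2-CD4 cre the order was the same except that Tigit (97.3 FPKM) stood above Btla (36.1). There the libraries of Btla and Cd96 (32.9) overlapped, as did those of Pdcd1 (9.48) and Cd226 (8.46). Ctla4 was among the 109 most abundant genes in all 4 libraries, and Havcr2 ranked 10319th or lower. Of the summed FPKM of the 10 genes, Ctla4 made up 44.1 and 47.0% in WT against 48.3 and 50.5% in Setd2-CD4 cre. The share of Tigit went from 7.44 and 5.81% to 13.9 and 15.7%, and that of Btla from 11.6 and 10.96% to 5.41 and 5.58%.

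Of the nectin-binding receptors, Tigit rose, and Cd96 and Cd226 were not called. Tigit (ENSMUSG00000071552, chromosome 16, 43648861 to 43664184, minus strand), which inhibits T cells and is also a gene of regulatory T cells, had 476 counts in WT 13, 373 in WT 15, 915 in Setd2-CD4 cre 22 and 1181 in 24. These counts were 36.3, 28.4, 89.0 and 108 CPM in the same order, so the lower Setd2-CD4 cre library lay more than the whole WT range above the higher WT library. Group means were 32.3 ± 5.58 CPM in WT and 98.6 ± 13.5 CPM in Setd2-CD4 cre (SD, n = 2 each). The difference was 1.61 on the log2 scale (SE 0.16, edgeR adjusted p = 0.00118). It ranked 381st of 12927 among rises, and 5.41% of tested genes had a larger change in either direction. Tigit passed in all 13 alternative settings, at 1.44 to 1.79.

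Cd96 (ENSMUSG00000022657, chromosome 16, 46035657 to 46120251), which binds CD155 as well, measured 52.6 and 55.2 CPM in the WT libraries, 90.7 in Setd2-CD4 cre 22 and 61.0 in 24. Replicate 22 was well above the other 3 libraries, and replicate 24 was close to WT. The genotypes differed by 0.49 on the log2 scale (SE 0.19), short of the threshold (edgeR adjusted p = 0.0813). Cd226 (ENSMUSG00000034028, chromosome 18, 89197431 to 89270201), the activating receptor of the group, measured 18.4 and 18.2 CPM in the WT libraries, 27.0 in Setd2-CD4 cre 22 and 21.2 in 24, again highest in replicate 22. That difference of 0.39 (log2, SE 0.17) was not called either (edgeR adjusted p = 0.116). Without Setd2-CD4 cre replicate 24 both genes passed (Cd96 0.75, adjusted p = 7.23e-06, and Cd226 0.56, adjusted p = 0.00747). That fit left 1 library of the genotype and assumed that it varied as WT did.

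Ratios taken within a library do not depend on library scaling. Tigit over Cd226, as FPKM, was 5.50 and 4.36 in WT against 9.24 and 14.3 in Setd2-CD4 cre. Tigit over Cd96 was 1.56 and 1.17 against 2.23 and 4.02. Both ratios were higher in each Setd2-CD4 cre library than in either WT library. Cd96 over Cd226 was 3.52 and 3.75 in WT against 4.15 and 3.56 in Setd2-CD4 cre, and there the genotypes overlapped. The smallest p an exact permutation test (two-sided) can reach with 2 libraries in each group is 0.333, so these ratios were not tested.

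**Figure D2:**
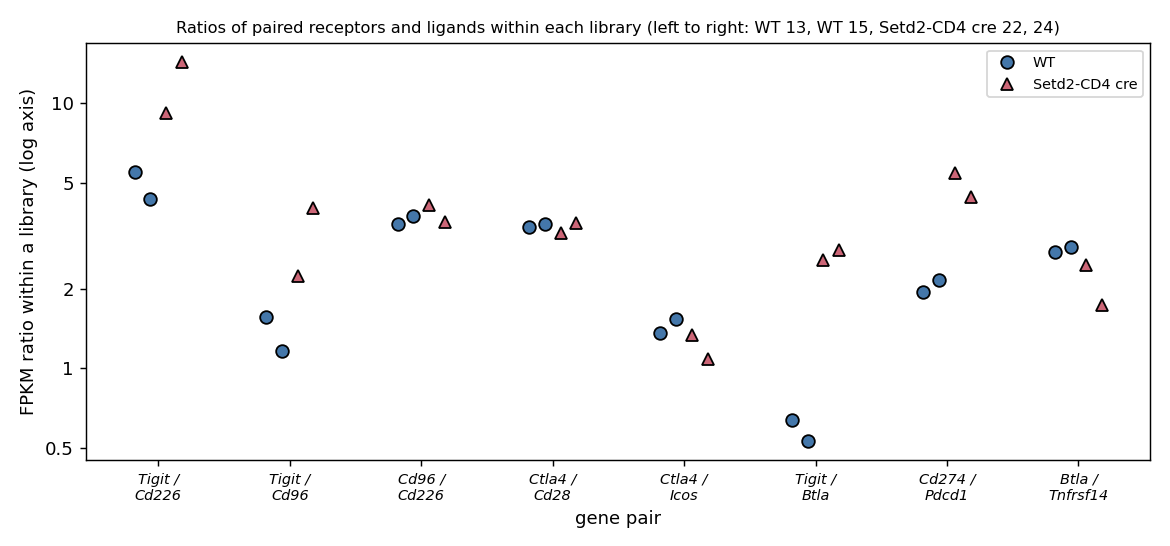
Ratio of deposited FPKM between 2 genes of a pair, within each library, on a log axis (circles WT, triangles Setd2-CD4 cre, 2 libraries each). Tigit over Btla moved from 0.640 and 0.530 to 2.57 and 2.81, while Ctla4 over Cd28 stayed between 3.24 and 3.54 in all 4 libraries.

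Among the ligands of these 3 receptors, Pvr (CD155) fell from 43.8 and 45.3 CPM to 28.5 and 31.7 CPM (log2 difference -0.56, SE 0.13, edgeR adjusted p = 0.0176). The 2 genotypes were well separated, but the call was lost without WT 13 (0.105) and without WT 15 (0.151). Pvrl2, which encodes nectin-2 (CD112), a ligand of TIGIT and CD226, was low at 2.29 to 5.55 CPM and overlapped between genotypes (-0.58, edgeR adjusted p = 0.284). Pvrl1 and Pvrl3, the genes of nectin-1 and nectin-3, lay between 0.685 and 2.63 CPM and did not pass (adjusted p = 0.144 and 0.872).

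Ctla4 rose together with both of its neighbours of the CD28 family. Ctla4 (ENSMUSG00000026011, chromosome 1, 60887000 to 60915832) measured 645 and 688 CPM in the WT libraries, 927 in Setd2-CD4 cre 22 and 1044 in 24. No WT value reached the lower of the Setd2-CD4 cre values. From means of 667 ± 29.9 and 986 ± 82.9 CPM (SD, n = 2 each) the rise was 0.56 on the log2 scale (SE 0.12, edgeR adjusted p = 0.013). The direction was the same in all 13 alternatives (0.32 to 0.65), but the call was lost in 6 of them, including without WT 13 (0.157), without WT 15 (0.112) and by limma-voom with cyclic loess scaling (0.32, adjusted p = 0.0817). Cd28, the activating counterpart, rose from 444 and 462 to 673 and 693 CPM (0.59, SE 0.11, edgeR adjusted p = 0.00721). Its call was lost without WT 13 (0.103) and WT 15 (0.0851). Icos, an inducible costimulatory receptor of the same family, rose from 576 and 543 to 845 and 1175 CPM (0.85, SE 0.17, adjusted p = 0.00931), a call lost without WT 15 (0.0663). Ctla4 lies 114 kb from Cd28 and 62.1 kb from Icos.

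The balance of CTLA-4 to CD28 transcripts was close in all libraries. Ctla4 over Cd28 was 3.42 and 3.50 in WT against 3.24 and 3.54 in Setd2-CD4 cre, with overlap. Ctla4 over Icos, at 1.36 and 1.54 against 1.33 and 1.08, was lower in each Setd2-CD4 cre library than in either WT library. Of the shared ligand genes, Cd80 fell from 39.5 and 29.7 to 19.3 and 23.5 CPM (-0.69, SE 0.19, edgeR adjusted p = 0.0271). Cd80 passed in 10 of the 13 alternatives. Its call was lost without WT 13 (-0.48) and by limma-voom with cyclic loess scaling (-0.59, adjusted p = 0.0661). It was also lost by limma-trend on log2(FPKM + 1) with no filter (-0.79, adjusted p = 0.0634). Cd86 measured 30.1 and 37.1 CPM in the WT libraries, 104 in Setd2-CD4 cre 22 and 48.9 in 24, and it was not called (1.19, SE 0.41, edgeR adjusted p = 0.106). Replicate 24 lay closer to WT than to replicate 22. DESeq2 called Cd86 (adjusted p = 0.00132), as did edgeR without Setd2-CD4 cre 22 (0.55, adjusted p = 0.00691) or 24 (1.63, adjusted p = 6.42e-09).

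Pdcd1 did not pass, while both of its ligand genes rose. Pdcd1 (ENSMUSG00000026285, chromosome 1, 94038305 to 94052553) measured 21.4 and 19.4 CPM in the WT libraries, 18.1 in Setd2-CD4 cre 22 and 20.4 in 24, so the genotypes overlapped (-0.08, SE 0.16, edgeR adjusted p = 0.722). Its sign was positive under cyclic loess scaling (0.07) and without Setd2-CD4 cre replicate 22 (0.0092). Cd274, which encodes PD-L1, rose from 78.3 and 78.3 to 186 and 170 CPM (1.19, SE 0.11, edgeR adjusted p = 0.000943), and it passed in all 13 alternatives. Pdcd1lg2, which encodes PD-L2, rose from 7.01 and 8.82 to 14.2 and 14.7 CPM (0.87, SE 0.21, adjusted p = 0.018), a call lost without WT 13 (0.167) and WT 15 (0.0640). Cd274 over Pdcd1, as FPKM, was 1.95 and 2.15 in WT against 5.46 and 4.45 in Setd2-CD4 cre.

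Btla was the member that fell. Btla (ENSMUSG00000052013, chromosome 16, 45224315 to 45252895) had 358 and 338 CPM in the WT libraries against 219 (Setd2-CD4 cre 22) and 243 (24), and means of 348 ± 13.9 and 231 ± 17.5 CPM (SD, n = 2 each). The gap between the nearest libraries of the 2 genotypes was larger than the range within either. The log2 difference was -0.59 (SE 0.11, edgeR adjusted p = 0.00736), and it lay between -0.79 and -0.51 in the 13 alternatives. The call was lost in 1 of these, without WT 13 (adjusted p = 0.0695). Relative to other T cell genes, as FPKM ratios, the order of the genotypes for Btla depended on the reference gene. Btla was lower in both Setd2-CD4 cre libraries over Cd4 (0.260 and 0.255 against 0.190 and 0.174) and over Cd3d (0.211 and 0.207 against 0.170 and 0.183). It was nearly level over Trac (0.123 and 0.123 against 0.123 and 0.120), overlapped over Cd3e (0.287 and 0.323 against 0.256 and 0.306) and was higher over Cd3g (0.199 and 0.220 against 0.255 and 0.278). Tigit was higher in both Setd2-CD4 cre libraries over each of these 5 genes. These ratios were not tested. Tnfrsf14, which encodes its ligand HVEM, overlapped between genotypes with 34.9 and 31.3 CPM in the WT libraries, 23.8 in Setd2-CD4 cre 22 and 37.6 in 24 (-0.11, SE 0.22, edgeR adjusted p = 0.736). Without Setd2-CD4 cre replicate 24 Tnfrsf14 passed (-0.47, adjusted p = 0.0192), and without replicate 22 its sign was positive (0.19).

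Cd160 (ENSMUSG00000038304, chromosome 3, 96798763 to 96829351), the second HVEM receptor, had 4 (WT 13), 6 (WT 15), 9 (Setd2-CD4 cre 22) and 0 (24) counts. The pooled level, over library totals, was 0.401 CPM in WT (exact 95% Poisson interval 0.192 to 0.738) and 0.403 in Setd2-CD4 cre (0.184 to 0.765), intervals that cover counting error only. A count of 0 in replicate 24 allows up to 0.265 CPM. A difference in Cd160 was not detectable at this depth.

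Havcr2 (ENSMUSG00000020399, chromosome 11, 46454935 to 46481255) rose from a low level, with 35 (WT 13), 41 (WT 15), 58 (Setd2-CD4 cre 22) and 69 (24) counts. As CPM these were 2.67, 3.12, 5.64 and 6.32, and the 2 genotypes did not overlap. From 2.89 ± 0.320 CPM in WT to 5.98 ± 0.478 CPM (SD, n = 2 each) this was a difference of 1.05 on the log2 scale (SE 0.29, edgeR adjusted p = 0.0312). The call was lost in 6 of the 13 alternatives, including without WT 13 (0.192), without WT 15 (0.131) and by DESeq2 (1.06, adjusted p = 0.0673). Among genes of its known ligands, Lgals9 (galectin-9) measured 115 and 116 CPM in the WT libraries against 96.5 and 85.9 (-0.34, SE 0.11, edgeR adjusted p = 0.0541) and passed in 8 alternatives, among them library totals (-0.49, adjusted p = 0.0147). Ceacam1 lay between 1.60 and 5.74 CPM with overlap (0.90, edgeR adjusted p = 0.172) and passed without Setd2-CD4 cre replicate 24 (1.33, adjusted p = 0.0107).

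Lag3 (ENSMUSG00000030124, chromosome 6, 124904361 to 124911705), which sits beside Cd4 on the chromosome and encodes a protein related to CD4 in structure that also binds MHC class II, was the most even of the abundant members. It measured 285 and 273 CPM in the WT libraries against 307 and 311 (0.15, SE 0.10, edgeR adjusted p = 0.298). The direction depended on the scaling, with -0.05 under cyclic loess and -0.0039 with library totals. As FPKM it was 138 and 134 against 132 and 139, which overlapped. Cd4 itself stood at 1120 and 1082 against 939 and 1138 CPM (-0.08, edgeR adjusted p = 0.665) and was called lower without Setd2-CD4 cre replicate 24 (-0.23, adjusted p = 0.0356). Lgals3, which encodes a galectin that binds LAG-3, stood at 17.7 and 21.6 against 30.6 and 25.5 CPM (0.51, SE 0.17, edgeR adjusted p = 0.0557) and passed without Setd2-CD4 cre replicate 24 (0.64, adjusted p = 0.003). Fgl1, another LAG-3 ligand gene, had 1 count in all libraries together. H2-Ab1, the MHC class II gene in the lists, rose from 20.3 and 21.0 to 54.0 and 37.6 CPM (1.15, SE 0.19, edgeR adjusted p = 0.00464). It lay between 0.87 and 1.39 in the 13 alternatives.

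Cd200 (ENSMUSG00000022661, chromosome 16, 45382135 to 45409053) measured 79.6 and 97.2 CPM in the WT libraries against 73.2 and 72.8. Both Setd2-CD4 cre values were below WT, but the WT libraries lay further apart than WT 13 lay from them. The difference (-0.28, SE 0.13) was not called (edgeR adjusted p = 0.140) but passed with library totals (-0.43, adjusted p = 0.0431). Cd200r1, its receptor gene, stood at 24.1 and 21.6 against 12.8 and 19.2 CPM (-0.51, SE 0.21, edgeR adjusted p = 0.104), and passed without Setd2-CD4 cre replicate 24 (-0.83, adjusted p = 0.00073).

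**Figure D3:**
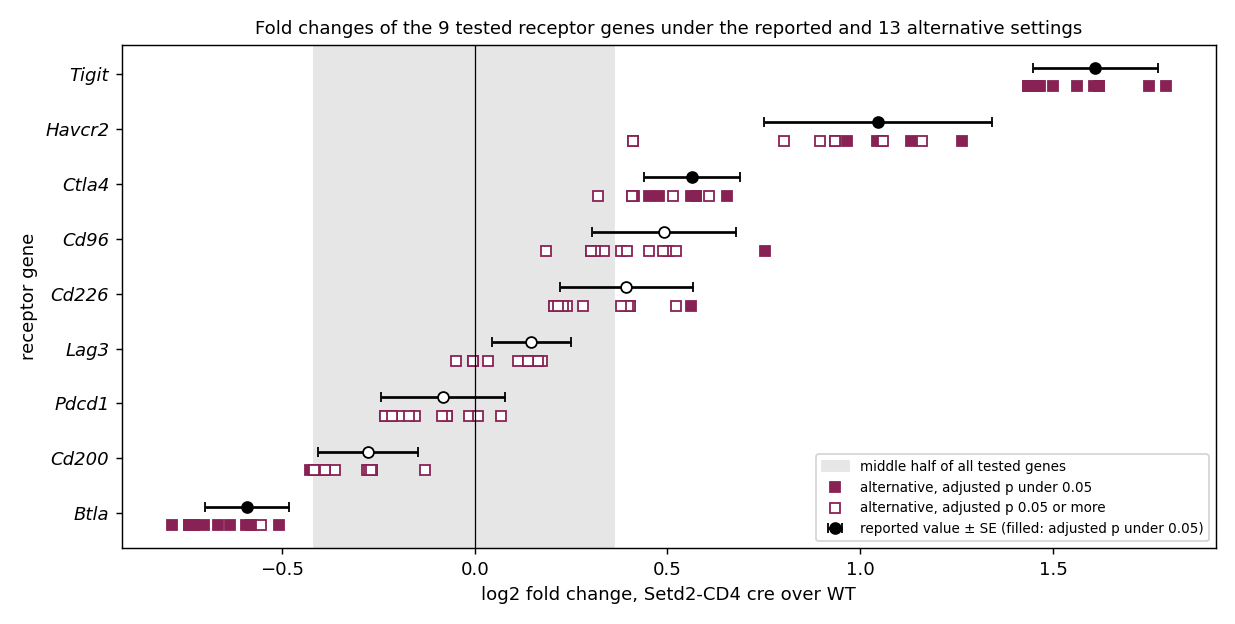
Log2 fold change (Setd2-CD4 cre over WT) of the 9 tested receptor genes. Circles are the reported values with SE, squares are the 13 alternative settings, filled where the adjusted p was under 0.05, and the grey band runs between the quartiles of all tested genes (-0.42 to 0.36). All squares of Tigit are filled and lie between 1.44 and 1.79, and 1 of 13 squares of Btla is open.

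On chromosome 16 lie 4 of the 10 genes, in the order Tigit, Btla, Cd200 and Cd96, and they did not move as a block. Btla and Cd200 are 129 kb apart and both had negative log2 fold changes (-0.59, called, and -0.28, not called). Tigit, 1560 kb from Btla, rose. Of 20 tested genes from Tigit to Cd96, 5 were higher and 1, Btla, was lower, where 30.7% of all tested genes were called. Besides Tigit the higher genes were Sidt1 (0.87, edgeR adjusted p = 0.00399), BC027231 (0.69, adjusted p = 0.0108), Atg3 (0.52, adjusted p = 0.0306) and Plcxd2 (0.48, adjusted p = 0.0405). BC027231 lost its call without WT 15 (0.121), Atg3 without WT 13 (0.178) and WT 15 (0.137), and Plcxd2 without WT 13 (0.219), WT 15 (0.143) and Setd2-CD4 cre replicate 24 (0.0513).

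On chromosome 1, of 7 tested genes from Cd28 to Icos, 3 were higher (Cd28, Ctla4 and Icos) and 1 was lower. The lower gene was Gm38137, a transcript model of unknown type with 21, 15, 0 and 4 counts in WT 13, WT 15, 22 and 24 (-2.80, SE 0.88, edgeR adjusted p = 0.045). Its call was lost when WT 13 (0.231), WT 15 (0.134) or Setd2-CD4 cre replicate 22 (-1.87, adjusted p = 0.114) was left out. Beside Havcr2, the next tested gene on 1 side was Timd2, a member of the same TIM family 188 kb away, which rose from 14.3 and 19.0 to 66.8 and 66.4 CPM (1.997 on the log2 scale, SE 0.17, edgeR adjusted p = 0.00073). Timd2 passed in all 13 alternatives. Other called neighbours were Rnf115 beside Cd160 (0.75, edgeR adjusted p = 0.00626, lost without WT 15 at 0.073) and Tmx3, 1240 kb from Cd226 (-0.40, adjusted p = 0.0261, lost without WT 13 at 0.188 and WT 15 at 0.195). Zbtb20, 6.26 kb from Tigit, did not pass (0.38, edgeR adjusted p = 0.0858) and passed without Setd2-CD4 cre replicate 22 (0.57, adjusted p = 0.000447).

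**Figure D4:**
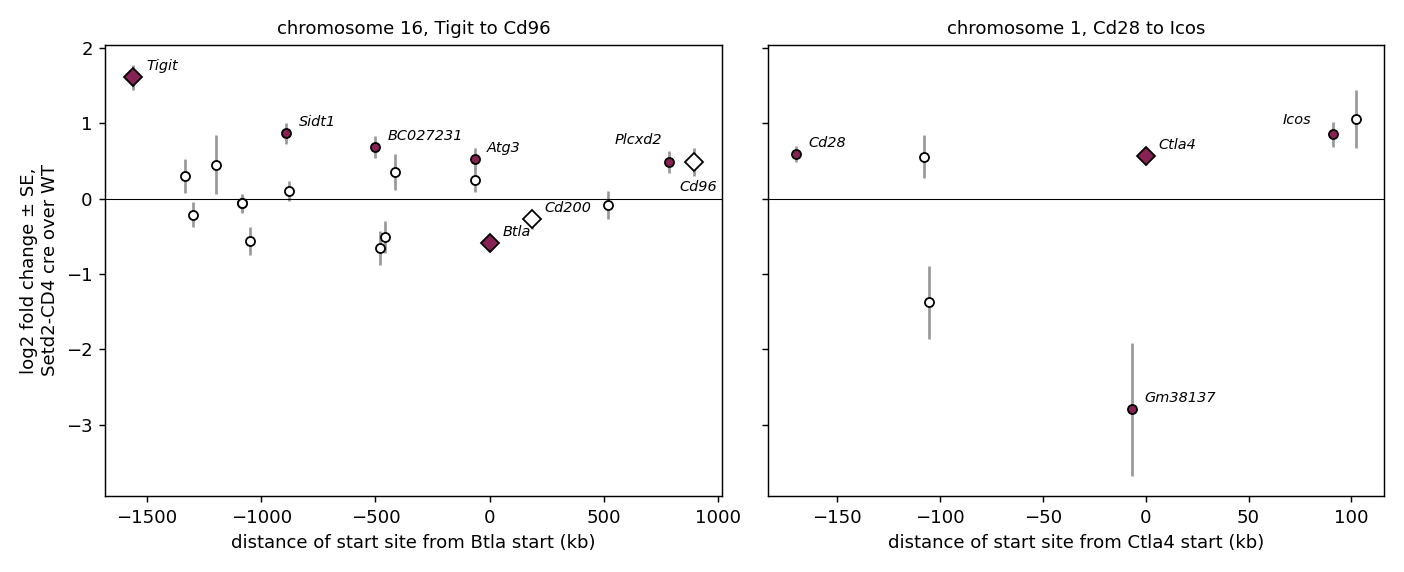
Log2 fold change (Setd2-CD4 cre over WT) with SE for tested genes against the distance of their start from that of Btla (left) or Ctla4 (right), in kb. Diamonds are the receptor genes under study and filled symbols have an adjusted p under 0.05. On the left Tigit lies at 1.61 and Btla at -0.59, and on the right Cd28, Ctla4 and Icos lie between 0.56 and 0.85.

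Other genes of the network were described from lists. The share of all tested genes called, beside which each list below is set, was 30.7% (16.2% higher and 14.5% lower). Of 15 tested ligand and counter-receptor genes, 2 rose (Cd274 and Pdcd1lg2) and 2 fell (Pvr and Cd80), with a median log2 fold change of 0.02. Without WT 13 the counts were 1 and 0, and without WT 15 they were 1 and 1. They were 3 and 3 without Setd2-CD4 cre 22 and 5 and 4 without 24. Of 15 other costimulatory receptors, 4 rose and none fell, with a median of -0.09. Without WT 13, 2 were higher, and without WT 15 none was. Besides Cd28 and Icos these were Slamf1, a self-binding receptor (0.61, SE 0.11, edgeR adjusted p = 0.00749, lost without WT 15 at 0.103), and Cd244, which had 3 and 3 counts against 13 and 11 (2.26 on the log2 scale, adjusted p = 0.0332) and lost its call without each of the 4 libraries (0.063 to 0.247). No other costimulatory receptor was lower in the reported test, but 3 were with library totals, without Setd2-CD4 cre 22 and without 24. One of those with library totals was Slamf6, at 66.3 and 65.2 against 14.3 and 33.0 CPM (-1.47, SE 0.41, edgeR adjusted p = 0.0601, and -1.62, adjusted p = 0.0482 with library totals). Slamf6 was also called lower by DESeq2 (-1.47, adjusted p = 9.45e-05) and limma-voom with cyclic loess (-1.57, adjusted p = 0.0157). It was not called by edgeR with no filter (-1.48, adjusted p = 0.200). DESeq2 called 1 of the 15 lower, and cyclic loess 2.

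Of 12 other tested genes of inhibitory membrane proteins, most of them receptors, 3 rose and 3 fell, with a median of -0.06. Without WT 13 the counts were 2 and 1, and without WT 15 they were 1 and 0. The risers were Nt5e, which encodes CD73, an ectoenzyme and not a receptor (0.59, SE 0.10, edgeR adjusted p = 0.00577), Lilrb4a (0.99, SE 0.17, adjusted p = 0.00724) and Cd244, already counted among the costimulatory receptors. Those that fell were Cd101 (-0.86, SE 0.16, edgeR adjusted p = 0.0081), Lair1, a collagen receptor gene with 37 and 40 counts against 8 and 3 (-2.47, SE 0.54, adjusted p = 0.0128), and Cd5 (-0.37, adjusted p = 0.0316). Without WT 15, Nt5e (0.0895), Cd101 (0.0692), Lair1 (0.0818) and Cd5 (0.164) lost their calls, and without WT 13 so did Lair1 (0.059) and Cd5 (0.272).

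Of 20 signalling partners of these receptors, 4 rose and 2 fell, with a median of 0.04, where 30.7% of all tested genes were called. Without WT 13 the counts were 2 and 0, without WT 15 they were 1 and 0, and with library totals 2 rose and 5 fell. They were 5 and 4 without Setd2-CD4 cre 22 and 6 and 4 without 24. Sh2d2a, which encodes the T cell adaptor TSAd, rose from 170 and 158 to 434 and 418 CPM (1.38, SE 0.11, edgeR adjusted p = 0.000695) and passed in all 13 alternatives. Grb7 (1.17, adjusted p = 0.0124), Bag6, which encodes a partner of TIM-3 (0.43, adjusted p = 0.0189), and Pik3r1, a phosphoinositide 3-kinase subunit gene (-0.52, adjusted p = 0.0135), passed by edgeR but lost their calls without WT 15 (0.115, 0.203 and 0.158), and the last 2 also without WT 13 (0.142 and 0.0531). The phosphatase genes Ptpn6 (-0.09, edgeR adjusted p = 0.756) and Ptpn11 (-0.42, adjusted p = 0.0271) encode SHP-1 and SHP-2, which bind the inhibitory tails of PD-1 and BTLA. The call for Ptpn11 was lost without WT 13 (0.181) and WT 15 (0.185).

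Of 20 transcription factor genes linked to inhibitory receptor expression, 5 rose and 1 fell, with a median of 0.22. This was close to the 30.7% of all tested genes that were called. Without WT 13 and without WT 15, 2 were higher and none lower. The counts were 8 and 2 without Setd2-CD4 cre 22 and 7 and 5 without 24. Nr4a3, an early target of T cell receptor signalling, rose from 48.1 and 47.9 to 113 and 119 CPM (1.27, SE 0.11, edgeR adjusted p = 0.000915), and Nfil3 from 49.1 and 46.5 to 94.3 and 92.9 CPM (0.97, SE 0.11, adjusted p = 0.00148). Both passed in all 13 alternatives. Ikzf2 (0.58, edgeR adjusted p = 0.00857) and Tox2 (0.62, adjusted p = 0.0301) lost their calls without WT 13 (0.0862 and 0.218) and WT 15 (0.0902 and 0.0945). The gene that fell was Irf4 (-0.44, edgeR adjusted p = 0.0382, lost without WT 13 at 0.0658 and WT 15 at 0.354). Maf, a factor gene of the inhibitory receptor programme, stood at 240 and 261 against 195 and 310 CPM (0.01, edgeR adjusted p = 0.977), and Prdm1 at 16.3 and 15.3 against 16.3 and 27.4 CPM (0.47, adjusted p = 0.180).

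**Figure D5:**
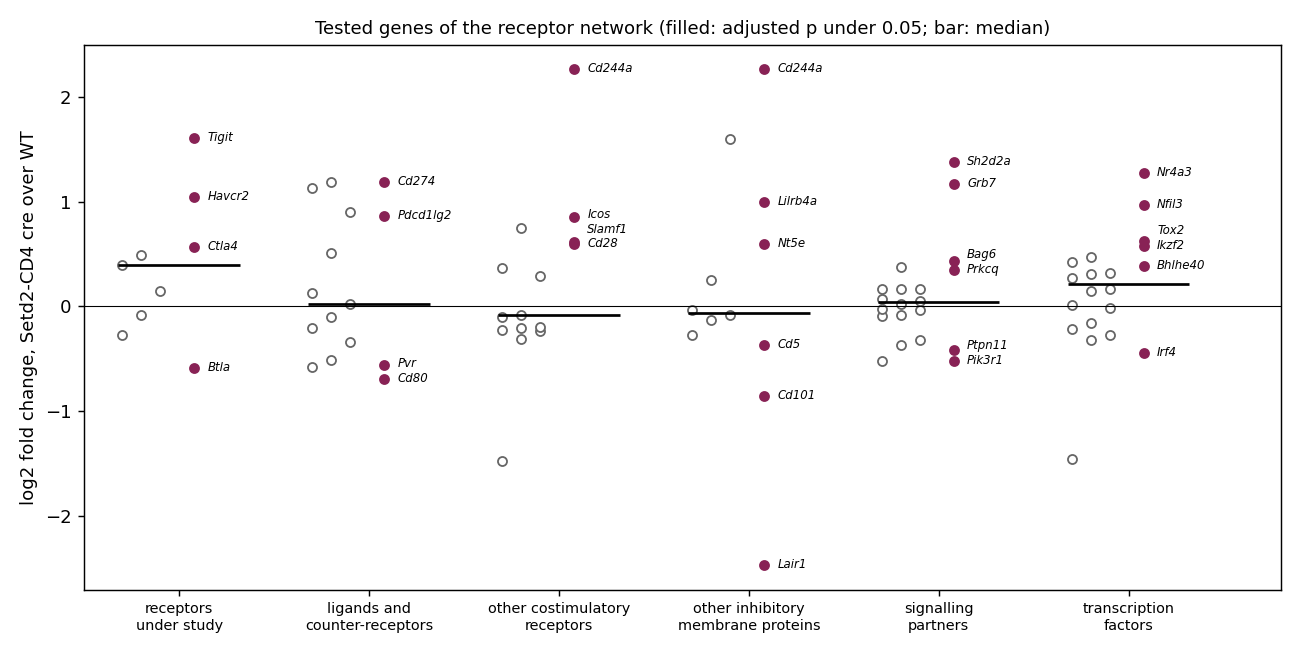
Log2 fold change (Setd2-CD4 cre over WT) of the tested genes among the receptors under study, their ligands, other costimulatory receptors, other inhibitory membrane proteins, signalling partners and transcription factors, filled and named where the adjusted p was under 0.05, with a bar at the median of each. Marker lists of cell types are not drawn. Cd244 appears under its current symbol, Cd244a, in the 2 lists that share it. The 6 medians drawn lie between -0.09 and 0.39.

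Several members are also expressed by cells other than Th17 cells, and markers of such cells differed between the groups. Of 14 B cell markers, a lineage with much BTLA and CD200, 12 rose and none fell, and their summed level was 242 to 283 CPM in WT and 604 to 866 CPM in Setd2-CD4 cre. Blk (3.25, edgeR adjusted p = 0.000915), Ebf1 (3.00, adjusted p = 0.00123) and Ighm (1.05, adjusted p = 0.00213) had the smallest p-values, and none of the 14 was at 0 in any library. The higher sum was in Setd2-CD4 cre replicate 22. Btla and Cd200 had log2 fold changes of -0.59 and -0.28, and that of Cd200 was not called. The part of B cell RNA in these values was not tested.

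Of 9 regulatory T cell markers, 1 rose and 5 fell, with a sum of 1374 to 1527 CPM in WT and 970 to 1029 CPM in Setd2-CD4 cre and none at 0. Most of that sum was Il2ra, at 884 and 1043 CPM in WT against 610 and 631 CPM (-0.64, edgeR adjusted p = 0.00982). The gene that rose, Ikzf2, lost its call without WT 13 (0.0862) and without WT 15 (0.0902), so that none was higher, and without WT 15 the number lower was 2. Foxp3 measured 17.9 and 17.6 CPM in the WT libraries, 0.973 in Setd2-CD4 cre 22 and 11.8 in 24 (-1.46, edgeR adjusted p = 0.409), while Gpr83 (-4.06, adjusted p = 0.000975) and Itgae (-1.36, adjusted p = 0.0064) fell. Leaving out either Setd2-CD4 cre library gave a call for Foxp3 (-0.58, adjusted p = 0.025 without 22, and -4.17, adjusted p = 1.3e-10 without 24). Tigit and Ctla4 are abundant in regulatory T cells, and the part of such cells in their values was not tested.

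Of 10 CD8 T and NK cell markers 8 were tested, and 4 rose and none fell. The number higher was 2 without WT 13 or WT 15 and 6 without Setd2-CD4 cre 24. Their sum was 246 to 268 CPM in WT and 569 (replicate 22) and 346 CPM (replicate 24) in Setd2-CD4 cre. Most of that sum was Gzma, at 141 and 146 CPM in WT against 295 and 201 CPM. Prf1 was the 1 tested gene with a negative log2 fold change (-0.66, edgeR adjusted p = 0.144), at 8.68 and 5.25 against 4.48 and 4.30 CPM. Cd8b1 stood at 20.7 and 22.0 against 51.9 and 20.4 CPM, with overlap (0.76, edgeR adjusted p = 0.312). Klrd1 (1.93, edgeR adjusted p = 0.000695), Klre1 (1.87, adjusted p = 0.00523) and Gzma (0.79, adjusted p = 0.0176) led by p, and Gzma lost its call without WT 13 (0.0668) and WT 15 (0.0647). Cd8a measured 35.1 and 50.6 CPM in the WT libraries, 75.2 in Setd2-CD4 cre 22 and 24.8 in 24, with overlap (0.22, edgeR adjusted p = 0.833). CD8 T and NK cells also express Cd96 and Cd226. The NK gene Ncr1 had 0 to 6 counts a library, with 0 in WT 13 and in Setd2-CD4 cre 24. The part of such cells in the values of Cd96 and Cd226 was not tested. Of 8 gamma-delta T cell markers (6 tested) 2 rose and none fell, with sums of 15.3 to 19.3 CPM in WT and 38.0 to 48.9 CPM in Setd2-CD4 cre. One of these, Cd163l1, lost its call without WT 15 (adjusted p = 0.0923), which left 1. The other riser, 5830411N06Rik, went from 3.05 and 3.80 to 20.7 and 27.0 CPM, most of the Setd2-CD4 cre sums (2.80, edgeR adjusted p = 0.000742). The receptor chain gene Trdc stood at 4.87 and 4.18 against 6.62 and 2.93 CPM, with overlap (0.07, edgeR adjusted p = 0.907). Tcrg-C1 had a positive log2 fold change (0.82), and those of Tcrg-C2 (-0.69) and Tcrg-C4 (-0.99) were negative, none of them called. Of 12 dendritic and myeloid markers (7 tested) 2 rose, H2-Ab1 (1.15) and Flt3 (2.28), and none fell. The sums of this list were 65.7 to 65.9 against 100.3 to 109 CPM, and Siglech was at 0 throughout. Of the tested genes not called, Itgax (-0.56), Lyz2 (-1.47) and Csf1r (-0.96) had negative log2 fold changes. Those of Zbtb46 (0.69) and Cd68 (0.24) were positive. The number higher was 3 without Setd2-CD4 cre 22, and 1 was lower without 24.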

How the data were processed

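Raw read counts per gene and FPKM values were deposited by the authors as 2 columns for each of the 4 libraries, per the file headers. Bowtie2 and RSEM, and the builds GRCm38.p6 and mm10, are named in the submitters' processing notes without versions or roles. Whether strand was used, and how reads shared between genes were counted, is not stated in the labels or headers. Groups and replicate numbers came from the sample titles (the sample titled 15 carries a cell type label beginning with 14). The groups share no number.

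Counts were tested with edgeR 4.0.16 in R 4.3.3 (TMM factors, filterByExpr, robust quasi-likelihood fit, Benjamini-Hochberg adjustment over 12927 genes). CPM are counts over the TMM-scaled library total. TMM factors were 1.05, 1.06, 0.934 and 0.964. Total counts of 11007343 to 12518415 put a count of 0 at up to 0.240 to 0.273 CPM. Replicates differed by more than counting noise (chi-square per degree of freedom 8.27 in WT and 17.4 in Setd2-CD4 cre). DESeq2 1.42.0, limma 3.58.1 on FPKM (pseudocount 1 or 0.1) and other scalings were alternatives, and the tests were tried on simulated counts.

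The members and lists were chosen with earlier results of these data known. Of the listed symbols, 155 matched directly, 6 by gene ID and 5 not. Named genes are the members, their ligands and paired receptors, the genes of each list with the smallest p-values, nearest neighbours and Setd2. Ptpn6, Ptpn11, Cd5, Slamf6, Irf4, Maf, Prdm1, Cd8a, Ncr1, Foxp3, the T cell genes Cd3d, Cd3e and Trac, and the genes between members on a chromosome were named after their values were seen. So were Trdc, Tcrg-C1, Prf1, Cd8b1, Csf1r, Zbtb46 and Cd68. Coordinates are the deposited ones, and 8 of 10 members had an entry in the promoter table.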

Additional observations from a re-analysis of the deposited data

How the results depend on the processing

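With 2 libraries a genotype, calls depended on single libraries. No paired analysis was possible because the groups share no replicate number. Among all genes, the number higher was 2094 in the reported test and 1267, 1269 and 751 by limma-trend on log2(FPKM + 1), on log2(FPKM + 0.1) and on log2(FPKM + 1) with no filter. Without a single library it ranged from 718 to 3068. The number lower was 1880, 2879 with library totals, and 564 to 2903 without a single library. The median log2 fold change of all genes was -0.01 with TMM, -0.12 with upper-quartile factors and -0.16 with library totals. Called genes split 2094 higher to 1880 lower with TMM, 1565 to 2617 with upper-quartile factors 1409 to 2879 with library totals, and 1267 to 2746 by limma-trend on log2(FPKM + 1).

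Of the receptor genes, 3 were higher in the reported test and 1 by both limma-trend fits with the smaller pseudocount or no filter. Without a single library the number higher ranged from 1 to 5. One gene was lower in the reported test, 2 with library totals, and 0 to 1 without a single library. The signs of Tigit, Ctla4, Havcr2, Btla, Cd200, Cd96 and Cd226 were the same in all 13 alternatives. Lag3 turned negative with library totals (-0.0039), cyclic loess (-0.049) and limma-trend (-0.0041, -0.0042 and -0.0041), and Pdcd1 turned positive with cyclic loess (0.068). Without a single library the log2 fold change ranged from -0.17 to 0.0092 for Pdcd1, from -0.47 to 0.19 for Tnfrsf14 and from -0.23 to 0.055 for Cd4, each highest without Setd2-CD4 cre replicate 22. The cause of these shifts was not tested. Depth limited Cd160 (0 to 9 counts) and Havcr2 (35 to 69 counts).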
